A study of Mus musculus with 12 samples.

Results

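The genes described here are 44 mouse genes of DNA replication and entry into S phase, chosen by a list of symbols grouped by role and followed through 12 RNA-seq libraries of the astrocyte line C8-D1A. They are 44 of 21959 genes in the deposited table, and all 44 were found and reached 1 TPM in every library of at least 1 group, the level required for testing. TPM, a unit of RNA abundance, is a share of a library corrected for transcript length, so levels of different genes can be set side by side. Each of 4 groups held 3 libraries: control cells in an incubator with 5% CO2, cells under 15% CO2, cells given lactic acid at 20 mM, and a group whose medium held NaHCO3 at 0.2 g/L, called low NaHCO3 below. Cells were collected after 24 h, and the series sets the 3 treatments side by side as ways of acidifying the medium. C8-D1A is a cloned line from mouse brain, so by that label all groups share 1 genetic background, which was not checked. The labels give neither the pH reached nor whether replicates were separate cultures, so p-values measure only the spread between these libraries, which may be technical.

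DNA is copied once per cell cycle in an order of steps that the gene groups below follow. In G1 the origin recognition complex, CDC6 and CDT1 load the ring-shaped MCM helicase onto DNA, which licenses an origin. Cyclin E with CDK2, and E2F transcription factors once released from the RB protein, bring the cell into S phase, where CDC45 and the GINS complex turn loaded MCM rings into active helicases. Primase and the polymerases then copy both strands, helped by the PCNA clamp, its RFC loader, single-strand binding protein, flap nuclease and ligase. Many of these genes are textbook targets of E2F, and cultured astrocyte lines, unlike most astrocytes of the adult brain, divide.

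Control replicate 1 stood apart before any group was compared. Of 47 markers of neurons, oligodendrocytes, microglia, vessel cells, red blood cells and mature astrocytes, 46 were highest in it, the exception being Sox9. Its 11 neuron markers summed to 2829 TPM against 101 to 158 TPM in the other 11 libraries, its 8 oligodendrocyte markers to 1011 against 35.2 to 76.8 TPM, and its 4 haemoglobin genes to 349 against 0.221 to 2.74 TPM. Its 8 microglia markers summed to 188 against 3.86 to 11.04 TPM, and its 7 endothelial and mural markers to 114 against 16.3 to 20.6 TPM. Of the mature astrocyte markers, Gfap reached at most 1.19 TPM, Aqp4 0.356 TPM and Slc1a3 0.0210 TPM in the other 11 libraries, where S100b (33.5 to 49.8 TPM) and Sox9 (31.2 to 52.5 TPM) were present. Slc1a2 (at most 0.416 TPM), Aldh1l1 (0.641), Aldoc (0.982) and Gja1 (0.433) were low there as well. So most of the 9 mature astrocyte markers of the labelled cell type were at or near 0 in those 11 libraries.

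The replication genes moved with that library. Of the 44, 43 were lower in control 1 than in controls 2 and 3, and 34 were lower there than in all 11 other libraries. Their median ratio to the mean of controls 2 and 3 was 0.555 (range 0.448 for Cdt1 to 1.14 for Fen1), against a median of 0.9604 over all genes tested. Fen1, the flap nuclease gene, was the exception to the lower level. The part of the other cell types' RNA in these low values was not tested. All results are therefore given in 2 fits, with all 12 libraries and without control 1. In both, log2(TPM + 1) was tested with limma, and p-values were adjusted by Benjamini-Hochberg over all genes, with 0.05 as the threshold. "Rose" and "fell" refer to genes past that threshold in the fit named.

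The 44 genes together took up a similar share of the RNA in controls 2 and 3 and in low NaHCO3, and less in the other 2 treatments. Their summed level was 2397 TPM in control 1, 4273 and 4160 TPM in controls 2 and 3, and 4205, 3986 and 4206 TPM in low NaHCO3. Under 15% CO2 the sum was 3522, 3737 and 3386 TPM, and with lactic acid 3698, 3742 and 3055 TPM, so every library of these 2 groups was below controls 2 and 3 and above control 1. In bulk RNA, fewer cells in S phase and less of these transcripts per cell cannot be told apart. The 6 subunits of the MCM ring alone summed to 1110 and 1078 TPM in controls 2 and 3, 884 to 953 under 15% CO2, 799 to 948 with lactic acid, and 1133 to 1246 in low NaHCO3.

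Part of each library goes to the 13 mRNAs encoded in mitochondria, which lowers all other shares. They took 19.7% in control 1 and 15.6% and 16.3% in controls 2 and 3. Under 15% CO2 they took 20.4%, 15.6% and 24.8%, with lactic acid 15.9%, 16.4% and 27.8%, and in low NaHCO3 10.4%, 10.4% and 10.9%. The lowest sums of the 44 genes in the 15% CO2 and lactic acid groups were in the libraries with the most mitochondrial mRNA. With these mRNAs left out and the rest rescaled, the sums were 5064 and 4971 TPM in controls 2 and 3, 4423 to 4502 under 15% CO2, 4233 to 4477 with lactic acid, and 4448 to 4718 in low NaHCO3. On that scale all 9 treated libraries lay below controls 2 and 3.

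**Figure D1:**
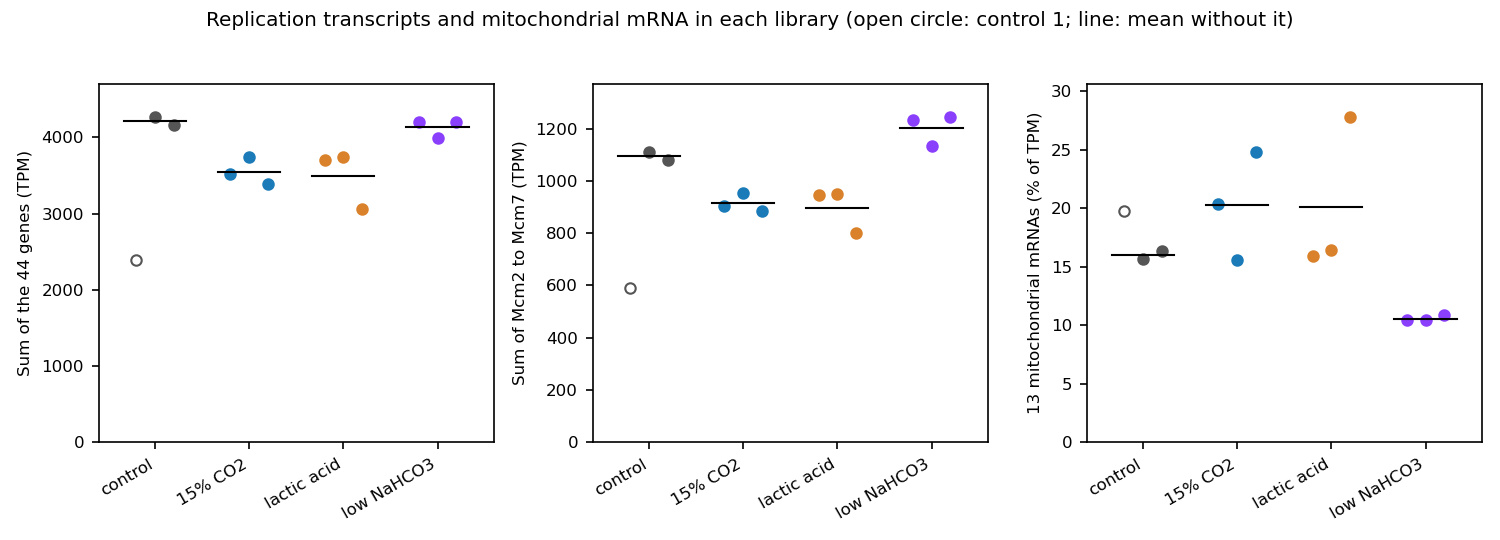
Each circle is 1 library: the summed TPM of the 44 genes (left), of Mcm2 to Mcm7 (middle) and the percent of TPM in 13 mitochondrial mRNAs (right), with control 1 as an open circle and a line at each group's mean without it. Control 1 lies lowest in both sums at 2397 and 589 TPM, and low NaHCO3 lies lowest in mitochondrial mRNA at 10.4% to 10.9%.

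In low NaHCO3 genes of the same replication step rose and fell side by side, as genes over the whole table did too. With all 12 libraries 11 of the 44 rose and 6 fell against control, where 20.5% of all genes tested rose and 35.8% fell (56.2% in all). Without control 1, 10 rose and 15 fell, where 23.1% of all genes rose and 41.5% fell (64.6% in all). So 38.6% of the 44 passed against 56.2% of all genes with 12 libraries, fewer of them falling, and 56.8% against 64.6% without control 1, and neither total is in excess of the background. The median log2 change of the 44 was −0.06 without control 1, against −0.18 over all genes tested, and 0.15 against −0.19 with all 12 libraries. Against controls 2 and 3 alone, all 3 low NaHCO3 libraries were higher in 14 genes and lower in 20, where 30.8% of all genes were higher and 51.3% lower.

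How the libraries were scaled moved the split between genes that rose and genes that fell. Median-of-ratios scaling moved the median of all genes without control 1 from −0.18 to 0.00030, and the median of the 44 from −0.06 to 0.14, on the other side of 0. With it 17 of the 44 rose and 10 fell, where 33.8% and 32.4% of all genes did. With quantile normalization 10 rose and 12 fell, where 29.4% and 31.8% of all genes did, and the median of the 44 was −0.07. With mitochondrial mRNAs left out 7 rose and 21 fell, where 20.1% and 47.6% of all genes did, and the median was −0.14. With all 12 libraries the splits were 16 and 5 (29.7% and 27.1% of all genes) with median-of-ratios scaling, 10 and 3 (25.5% and 22.8%) with quantile normalization, and 9 and 8 (17.1% and 42.6%) without mitochondrial mRNAs. The split over all genes thus moved with the scaling too. The genes called in the same direction under all 4 scalings without control 1 numbered 7 that rose and 9 that fell, where 19.8% and 27.4% of all genes met the same rule. Those that rose were Mcm4, Cdt1, Cdc45, Rfc3, Rpa2, Dtl and Uhrf1, and all 7 also rose with 12 libraries. Those that fell were Gins1, Gins3, Rfc5, Pola1, Tyms, Ccne1, Ccne2, E2f1 and Chaf1a, of which Gins1, Rfc5, Tyms, Ccne1 and Ccne2 also fell with 12 libraries. When each of the 11 remaining libraries was also left out in turn, 6 and 9 of them passed every time, the exception being Rpa2.

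**Figure D2:**
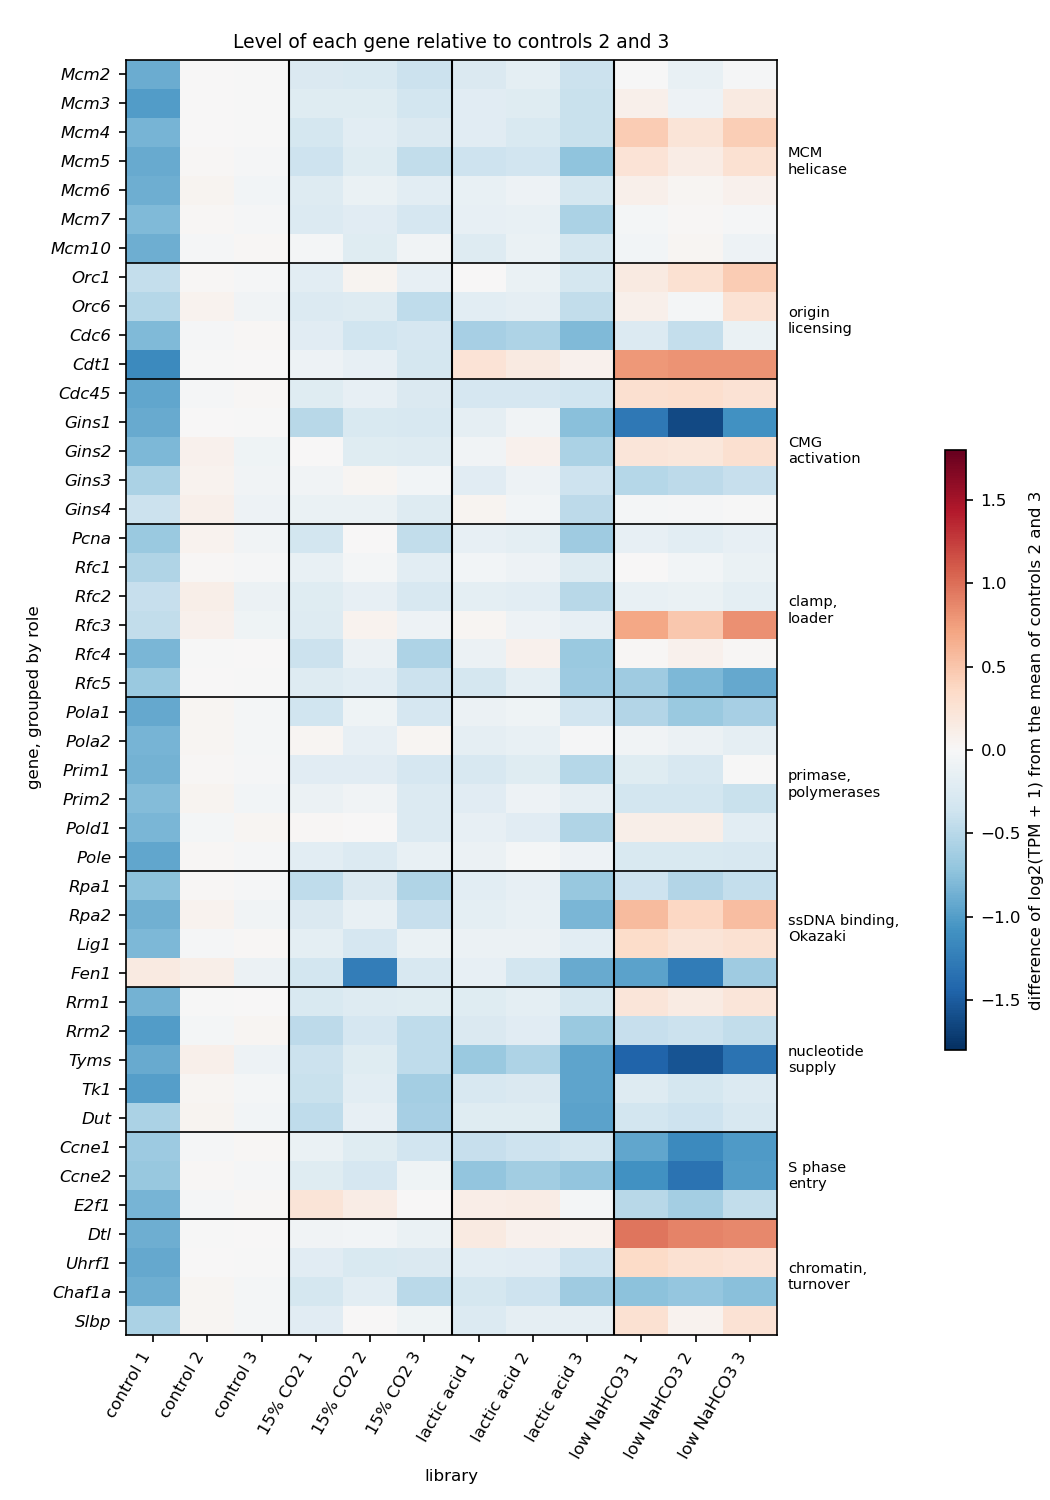
Colour gives the difference of log2(TPM + 1) from the mean of controls 2 and 3 for the 44 genes (rows, grouped by role) in the 12 libraries (columns). Control 1 is low for 43 of the 44 genes, and in low NaHCO3 genes of 1 role go in opposite directions, as with Rfc3 and Rfc5.

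**Figure D3:**
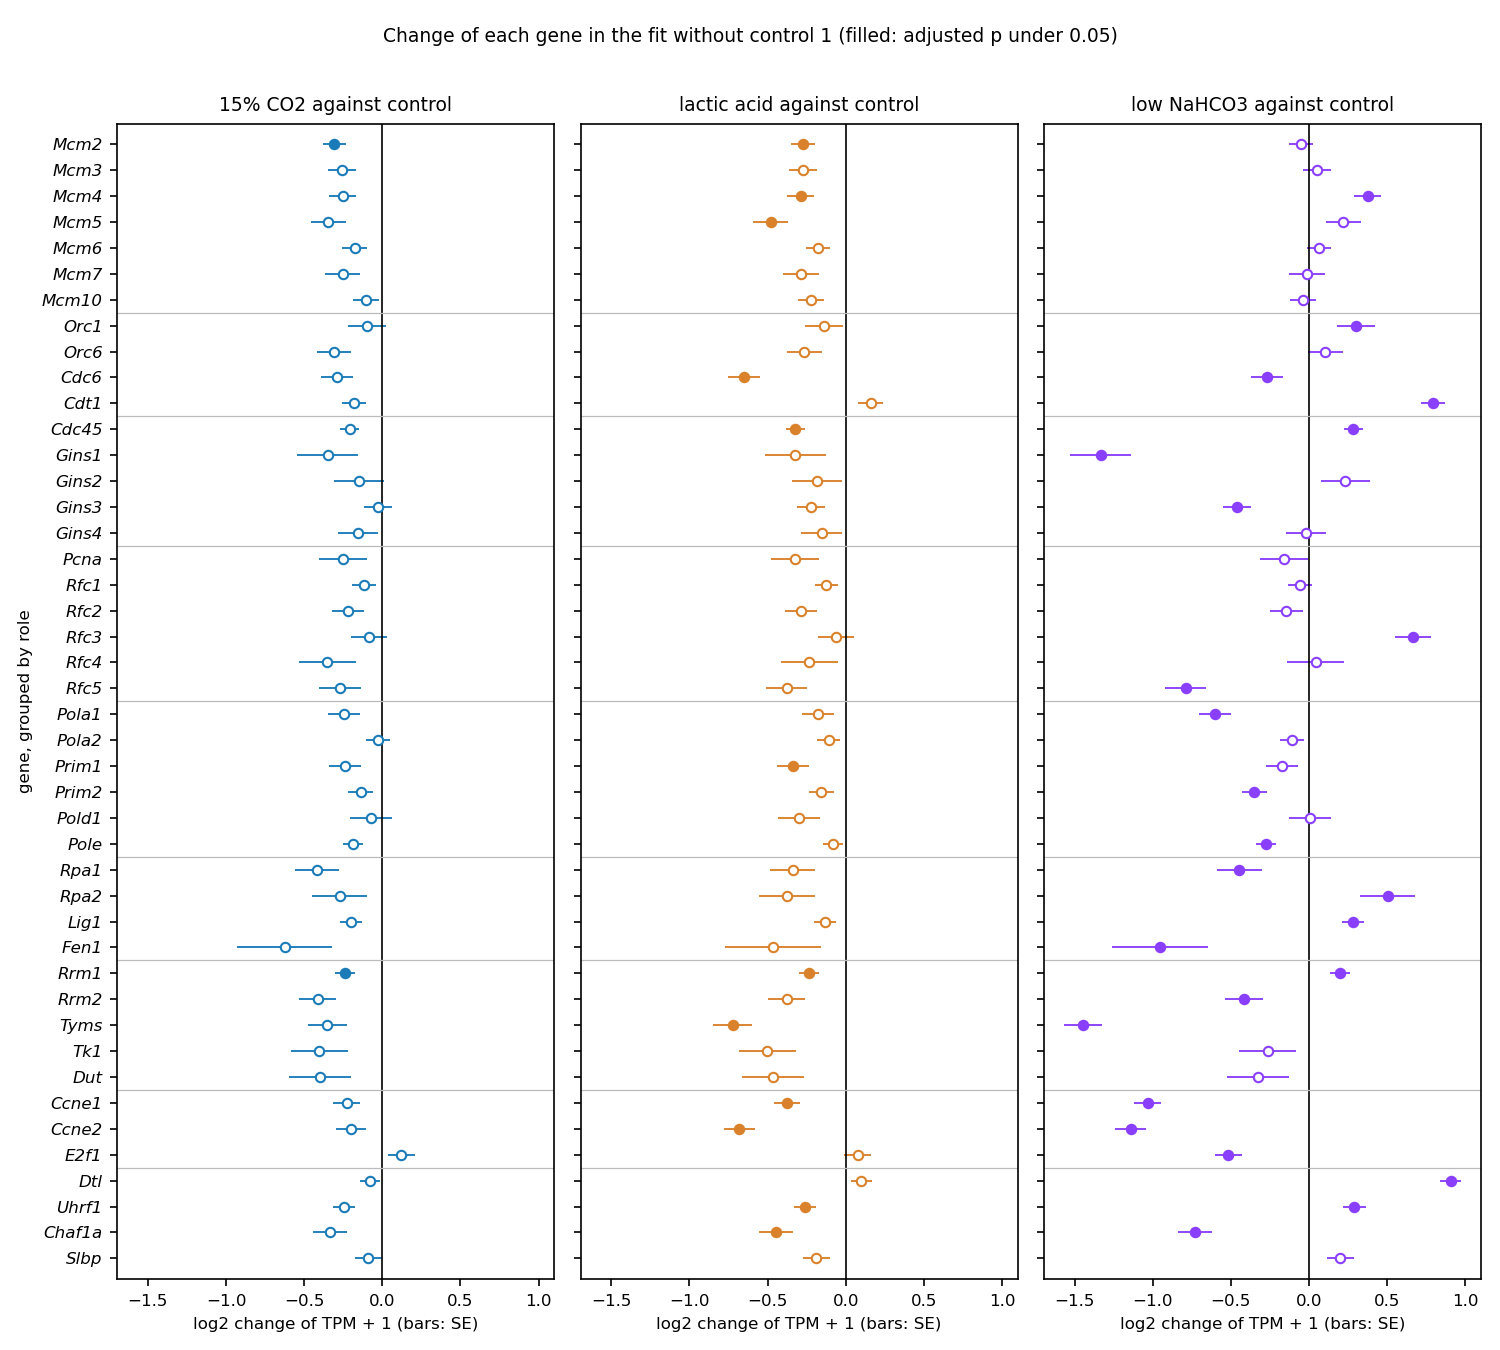
Points are log2 changes of TPM + 1 against control in the fit without control 1, with standard errors as bars, for the 44 genes under each treatment; filled points passed an adjusted p of 0.05. Under 15% CO2 43 points and with lactic acid 41 points lie below 0, while in low NaHCO3 18 lie above and 26 below.

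The start regions of these genes were read for what they share. RefSeq promoter windows of GRCm38.p6, from 250 bases before to 50 after each start, were matched to 36 of the 44 genes, with no entry for Mcm4, Prim2, Gins1, Rfc2, Gins2, Pole, Gins4 and Ccne2. The reads were aligned to GRCm39, so the coordinates below are those of the older build. An E2F word (TTTCCCGC, TTTCGCGC, TTTGCCGC or TTTGGCGC, on either strand) stood in the windows of 14 of 36 genes (38.9%), against 704 of 27025 genes in the table (2.60%). In the 250 bases before the start alone it stood in 10 of 36 (27.8%), against 2.16% of all genes. CCAAT, the 5-base word bound by the factor NF-Y, stood on either strand in 23 of 36 (63.9%), against 41.1% of all genes. It can share at most 1 base, at an edge, with an E2F word. Of genes called in low NaHCO3 without control 1, 6 of 9 that rose, 3 of 11 that fell and 5 of 16 not called held an E2F word. A match is a run of letters and not a bound site.

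The start regions of 4 genes with large changes are given in letters. Dtl and Cdt1, with the largest rises, differ: the 250 bases before the start of Dtl end in an E2F word, given in capitals, and those of Cdt1 hold none, its word beginning at base 33 of the transcript. Tyms and Ccne1 fell, and their 250 bases hold none of these words either.
Dtl (chr1:191575545-191575794, minus strand): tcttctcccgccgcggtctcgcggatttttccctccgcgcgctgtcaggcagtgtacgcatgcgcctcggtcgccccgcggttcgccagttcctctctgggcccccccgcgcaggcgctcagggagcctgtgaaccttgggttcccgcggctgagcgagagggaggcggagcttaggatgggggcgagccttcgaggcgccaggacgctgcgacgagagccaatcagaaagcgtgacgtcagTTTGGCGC
Cdt1 (chr8:122567765-122568014, plus strand): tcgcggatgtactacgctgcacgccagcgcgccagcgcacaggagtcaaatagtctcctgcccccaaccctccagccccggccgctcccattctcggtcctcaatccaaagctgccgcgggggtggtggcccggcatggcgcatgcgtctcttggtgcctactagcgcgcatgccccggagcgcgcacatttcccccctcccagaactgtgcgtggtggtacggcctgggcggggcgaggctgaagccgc
Tyms (chr5:30073626-30073875, minus strand): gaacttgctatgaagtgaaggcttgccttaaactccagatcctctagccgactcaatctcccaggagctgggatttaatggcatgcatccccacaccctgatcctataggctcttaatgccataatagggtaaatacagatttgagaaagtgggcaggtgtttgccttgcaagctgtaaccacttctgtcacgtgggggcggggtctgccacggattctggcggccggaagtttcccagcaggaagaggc
Ccne1 (chr7:38107491-38107740, minus strand): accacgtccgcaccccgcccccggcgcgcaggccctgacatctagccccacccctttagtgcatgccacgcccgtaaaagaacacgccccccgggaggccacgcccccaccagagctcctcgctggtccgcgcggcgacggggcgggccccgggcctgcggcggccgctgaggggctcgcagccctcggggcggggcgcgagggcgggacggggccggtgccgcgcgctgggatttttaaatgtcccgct
The same words occur near the starts of genes that rose, fell or did not pass in low NaHCO3. These 30-base stretches show a word in capitals, read in the direction of the gene. The stretches of Rfc3, Mcm5 and Mcm6 each hold a further E2F word that is not marked, which in Mcm5 and Mcm6 overlaps the marked word. Rfc3, Orc1 and Uhrf1 rose without control 1, Gins3, Cdc6 and Pola1 fell, and Mcm5 and Mcm6 did not pass.
Rfc3 (chr5:151651200-151651229, minus strand): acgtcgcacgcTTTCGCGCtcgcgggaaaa
Orc1 (chr4:108579416-108579445, plus strand): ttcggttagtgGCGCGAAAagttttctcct
Uhrf1 (chr17:56304117-56304146, plus strand): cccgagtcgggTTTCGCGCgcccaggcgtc
Gins3 (chr8:95633507-95633536, plus strand): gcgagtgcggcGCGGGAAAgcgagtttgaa
Cdc6 (chr11:98908002-98908031, plus strand): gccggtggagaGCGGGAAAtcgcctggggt
Pola1 (chrX:93632275-93632304, minus strand): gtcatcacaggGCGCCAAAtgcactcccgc
Mcm5 (chr8:75109345-75109374, plus strand): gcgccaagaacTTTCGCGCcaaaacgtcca
Mcm6 (chr1:128359797-128359826, minus strand): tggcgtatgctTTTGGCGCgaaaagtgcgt

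Among the MCM genes, Mcm4 alone rose in low NaHCO3, in both fits. Mcm4, a subunit of the helicase ring, stood at 129 TPM in control 1, 231 and 228 in controls 2 and 3, 184, 202 and 192 under 15% CO2, 200.03, 190.5 and 174 with lactic acid, and 315, 269.6 and 312 in low NaHCO3. All 3 low NaHCO3 libraries were above every other library, at 1.302 times the mean of controls 2 and 3. Its log2 change was 0.38 ± 0.087 without control 1 (adjusted p = 0.0029) and 0.65 ± 0.19 with all 12 libraries (adjusted p = 0.0128). Mcm5, its neighbour in role, stood at 87.2 TPM in control 1, 168 and 162 in controls 2 and 3, 127, 142 and 121 under 15% CO2, 127, 129.6 and 99.8 with lactic acid, and 197, 181 and 200.02 in low NaHCO3. The low NaHCO3 libraries were again above all others, but the log2 change of 0.22 ± 0.11 without control 1 (adjusted p = 0.109) and 0.52 ± 0.21 with all 12 libraries (adjusted p = 0.0551) did not pass.

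Mcm2, the subunit that also holds histones at the fork, was measured at 58.8 TPM in control 1, 111 and 109.8 in controls 2 and 3, 92.5, 90.8 and 84.5 under 15% CO2, 92.1, 97.4 and 84.3 with lactic acid, and 109.9, 101 and 109 in low NaHCO3. Its low NaHCO3 libraries overlapped controls 2 and 3, with log2 changes of −0.05 ± 0.077 without control 1 (adjusted p = 0.569) and 0.25 ± 0.20 with all 12 libraries (adjusted p = 0.3). Mcm7, the subunit with the smallest change in the group without control 1, was at 90.8 TPM in control 1, 159.5 and 156 in controls 2 and 3, 133, 137 and 128 under 15% CO2, 143, 143 and 106 with lactic acid, and 154, 160.1 and 155 in low NaHCO3, and lactic acid replicate 3 was the lowest of the treated libraries. Of its 50-base words, 16.5% also occur in the pseudogene Gm5487. Mcm10, which helps start the assembled helicase, was at 20.7 TPM in control 1, 38.3 and 39.4 in controls 2 and 3, 38.02, 33.2 and 37.2 under 15% CO2, 33.03, 35.7 and 30.9 with lactic acid, and 37.4, 39.8 and 36.5 in low NaHCO3. Low NaHCO3 overlapped controls 2 and 3 for both genes, and neither passed, with log2 changes of −0.01 ± 0.11 and −0.04 ± 0.084 without control 1. Mcm3 and Mcm6, at 111 to 250.1 and 112 to 221 TPM over the 12 libraries, did not pass either. Of the 7 genes, 1 passed in both fits, where 64.6% of all genes passed without control 1 and 56.2% with 12 libraries. Counts by role below are over few genes and are to be read against the same shares.

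The licensing genes split, with Cdt1 up and Cdc6 not. Cdt1, the loader whose protein is destroyed once S phase begins, stood at 44.01 TPM in control 1, 97.7 and 98.7 in controls 2 and 3, 92.4, 88.5 and 79.01 under 15% CO2, 117, 109.8 and 103 with lactic acid, and 169, 173 and 172 in low NaHCO3. Its low NaHCO3 libraries were above all others, at 1.74 times controls 2 and 3, and the 3 lactic acid libraries were also above both of those controls. The log2 change in low NaHCO3 was 0.79 ± 0.077 without control 1 (adjusted p = 6.09e-06) and 1.17 ± 0.24 with all 12 libraries (adjusted p = 0.00189). With lactic acid it was 0.16 ± 0.077 without control 1 (adjusted p = 0.173), which did not pass. Cdc6, the partner loader, stood at 21.8 TPM in control 1, 38.2 and 39.1 in controls 2 and 3, 33.3, 29.8 and 31.2 under 15% CO2, 25.3, 25.9 and 21.8 with lactic acid, and 32.3, 28.6 and 35.4 in low NaHCO3. All 9 treated libraries were below controls 2 and 3, the lactic acid ones furthest. In low NaHCO3 Cdc6 fell without control 1 only, with log2 changes of −0.27 ± 0.10 without control 1 (adjusted p = 0.0383) and −0.0015 ± 0.19 with all 12 libraries (adjusted p = 0.995), and it passed under 2 of the 4 scalings and in 7 of 11 fits with a further library left out.

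Orc1, the large subunit of the origin recognition complex, was among the lowest of the 44 genes at 9.22 TPM in control 1, 13.003 and 12.6 in controls 2 and 3, 11.2, 13.3 and 11.4 under 15% CO2, 12.9, 11.8 and 10.1 with lactic acid, and 14.4, 15.7 and 17.9 in low NaHCO3. Its low NaHCO3 libraries were above all others, and it rose in both fits, by 0.30 ± 0.12 without control 1 (adjusted p = 0.0499) and 0.44 ± 0.15 with all 12 libraries (adjusted p = 0.0242). Without control 1 it sat at the threshold. It passed under 3 of the 4 scalings and in 4 of 11 fits with a further library left out. Orc6, the smallest subunit, was at 84.8 TPM in control 1, 127 and 116 in controls 2 and 3, 102, 103 and 88.3 under 15% CO2, 106, 108 and 89.2 with lactic acid, and 129, 118 and 145 in low NaHCO3. In low NaHCO3 it overlapped controls 2 and 3, and without control 1 its log2 change did not pass (0.10 ± 0.11, adjusted p = 0.427). Without control 1 the 4 licensing genes gave 2 that rose and 1 that fell, and with 12 libraries 2 and 0, where 64.6% and 56.2% of all genes passed in either direction.

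The genes that turn a loaded ring into an active helicase went both ways. Cdc45, which binds the ring with GINS, stood at 38.7 TPM in control 1, 73.9 and 75.4 in controls 2 and 3, 64.3, 67.3 and 62.05 under 15% CO2, 60.4, 60.6 and 57.7 with lactic acid, and 91.2, 92.5 and 89.3 in low NaHCO3. In low NaHCO3 it was above all other libraries, and it rose by 0.28 ± 0.061 without control 1 (adjusted p = 0.00185) and 0.59 ± 0.20 with all 12 libraries (adjusted p = 0.0252). Gins1, a subunit of GINS, stood at 21.3 TPM in control 1, 40.9 and 40.7 in controls 2 and 3, 28.5, 33.7 and 33.4 under 15% CO2, 36.4, 39.1 and 23.9 with lactic acid, and 16.1, 12.5 and 18.7 in low NaHCO3. In low NaHCO3 it stood at 0.387 times the mean of controls 2 and 3, below all other libraries, with log2 changes of −1.33 ± 0.20 without control 1 (adjusted p = 0.000127) and −1.03 ± 0.26 with all 12 libraries (adjusted p = 0.0057).

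The other GINS subunits, which bind as 1 complex, did not follow Gins1 as a set. Gins2 stood at 9.997 TPM in control 1, 19.1 and 17.3 in controls 2 and 3, 18.2, 15.5 and 15.3 under 15% CO2, 17.4, 19.2 and 11.99 with lactic acid, and 21.3, 21.1 and 22.3 in low NaHCO3, and Gins3 at 28.7 ± 0.951 TPM in low NaHCO3 (SD, n = 3) against a mean of 39.9 TPM in controls 2 and 3. Gins4 stood at 60.4 TPM in control 1, 84.6 and 74.9 in controls 2 and 3, 72.99, 73.3 and 67.5 under 15% CO2, 82.8, 76.97 and 57.1 with lactic acid, and 77.8, 78.2 and 79.3 in low NaHCO3. Gins3 fell without control 1 only, at −0.46 ± 0.089 without control 1 (adjusted p = 0.000827) and −0.27 ± 0.14 with all 12 libraries (adjusted p = 0.124). Gins2 (0.23 ± 0.16) and Gins4 (−0.02 ± 0.13) did not pass without control 1 or with 12 libraries. In the GENCODE M21 annotation 67.3% of the exon bases of Gins2 lie opposite exons of Gse1, and as the use of strand is not given in the sources used here, its reads cannot be told apart from those of Gse1 there.

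Within the clamp and its loader, Rfc3 rose and Rfc5 fell in low NaHCO3 in both fits. Rfc3, a small loader subunit, stood at 17.3 TPM in control 1, 25.4 and 22.7 in controls 2 and 3, 20.3, 25.0 and 22.5 under 15% CO2, 24.6, 22.5 and 21.6 with lactic acid, and 39.5, 33.8 and 43.01 in low NaHCO3. In low NaHCO3 all 3 were above every other library, with log2 changes of 0.66 ± 0.12 without control 1 (adjusted p = 0.000431) and 0.81 ± 0.14 with all 12 libraries (adjusted p = 0.000668). Rfc5, a related small subunit, stood at 26.9 TPM in control 1, 43.7 and 43.1 in controls 2 and 3, 36.7, 38.1 and 32.8 under 15% CO2, 34.8, 38.5 and 27.2 with lactic acid, and 27.5, 24.4 and 22.4 in low NaHCO3. Low NaHCO3 was below controls 2 and 3 and overlapped control 1 and lactic acid replicate 3. Its log2 changes were −0.79 ± 0.13 without control 1 (adjusted p = 0.000338) and −0.57 ± 0.18 with all 12 libraries (adjusted p = 0.022), and 10.7% of its exon bases lie opposite Wsb2 (36.3 to 66.9 TPM).

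Pcna, the sliding clamp that holds polymerase to DNA, was the highest of the 44 genes on average at 202 TPM in control 1, 336 and 308 in controls 2 and 3, 256, 324 and 237 under 15% CO2, 290.4, 283 and 206 with lactic acid, and 290.4, 282 and 291 in low NaHCO3. All 3 low NaHCO3 libraries were below controls 2 and 3, but 15% CO2 replicate 2 lay between them, and the log2 change in low NaHCO3 of −0.16 ± 0.15 without control 1 (adjusted p = 0.381) and 0.06 ± 0.20 with all 12 libraries (adjusted p = 0.802) did not pass. Rfc1, the large loader subunit, stood at 65.2 TPM in control 1, 96.4 and 94.5 in controls 2 and 3, 86.6, 93.3 and 83.9 under 15% CO2, 92.2, 89.1 and 81.5 with lactic acid, and 95.5, 91.95 and 87.6 in low NaHCO3, with a log2 change of −0.06 ± 0.075 without control 1. Rfc4 stood at 53.4 TPM in control 1, 95.2 and 95.7 in controls 2 and 3, 72.7, 88.6 and 64.4 under 15% CO2, 88.8, 101 and 59.6 with lactic acid, and 97.2, 101 and 96.96 in low NaHCO3, and its low NaHCO3 change of 0.04 ± 0.18 was the smallest of the group. Rfc2 (26.4 to 40.5 TPM) did not pass either, so 1 of the 6 rose and 1 fell in both fits. Of Pcna's 50-base words 19.1% also occur in Pcna-ps2, and 12.7% of Rfc4's and 15.1% of Rfc2's exon bases lie opposite Eif4a2 and Lat2, so these values are less certain.

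Primase and polymerase genes fell or did not pass in low NaHCO3, and none rose in either fit. Pola1, the catalytic subunit of the polymerase that extends primers, stood at 32.03 TPM in control 1, 63.1 and 60.2 in controls 2 and 3, 48.01, 58.3 and 49.96 under 15% CO2, 57.2, 58.5 and 48.2 with lactic acid, and 42.3, 38.4 and 40.4 in low NaHCO3. Low NaHCO3 was at 0.655 times controls 2 and 3, with log2 changes of −0.60 ± 0.10 without control 1 (adjusted p = 0.000382) and −0.29 ± 0.21 with all 12 libraries (adjusted p = 0.254), so it fell without control 1 only. Prim2 (−0.35 ± 0.08), the large primase subunit, and Pole (−0.27 ± 0.064), the leading-strand polymerase, also fell in that fit, though each passed under only 2 of the 4 scalings. Pold1, the lagging-strand polymerase, stood at 25.2 TPM in control 1, 44.4 and 46.6 in controls 2 and 3, 46.04, 45.6 and 38.3 under 15% CO2, 40.8, 39.4 and 30.9 with lactic acid, and 49.1, 48.8 and 39.7 in low NaHCO3. Low NaHCO3 overlapped controls 2 and 3, and its log2 change without control 1 was the smallest of the group (0.0047 ± 0.13, adjusted p = 0.978). Pola2 (51.0 to 93.8 TPM) and Prim1 (58.6 to 108 TPM) did not pass.

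Single-strand binding and Okazaki fragment genes also split. Rpa2, the middle subunit of the single-strand binding protein, stood at 31.8 TPM in control 1, 61.2 and 55.9 in controls 2 and 3, 48.7, 53.0 and 43.6 under 15% CO2, 51.9, 53.1 and 32.6 with lactic acid, and 87.4, 76.2 and 86.7 in low NaHCO3. The low NaHCO3 libraries were above all others, with log2 changes of 0.50 ± 0.18 without control 1 (adjusted p = 0.0269) and 0.79 ± 0.24 with all 12 libraries (adjusted p = 0.0154); without control 1 it no longer passed when control 2 or 3 or low NaHCO3 replicate 1 or 3 was also left out. Rpa1, the large subunit, was at 144 ± 7.81 TPM in low NaHCO3 (SD, n = 3) against a mean of 196 TPM in controls 2 and 3, and fell without control 1 only, at −0.45 ± 0.14 without control 1 (adjusted p = 0.0169) and −0.20 ± 0.20 with all 12 libraries (adjusted p = 0.413). Rpa1 passed under 3 of the 4 scalings and in 8 of 11 fits with a further library left out. Lig1, the ligase that joins Okazaki fragments, stood at 76.5 TPM in control 1, 132 and 136 in controls 2 and 3, 118, 109 and 124 under 15% CO2, 124, 125 and 117 with lactic acid, and 169, 157 and 163 in low NaHCO3. Low NaHCO3 was above all others, and it rose by 0.28 ± 0.071 without control 1 (adjusted p = 0.00501) and 0.55 ± 0.18 with all 12 libraries (adjusted p = 0.0218), and passed under 3 of the 4 scalings.

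Fen1, the nuclease that trims Okazaki flaps, was listed at the lowest level of the 44 genes, at 4.998 TPM in control 1, 4.78 and 3.97 in controls 2 and 3, 3.24, 1.26 and 3.37 under 15% CO2, 3.83, 3.27 and 1.85 with lactic acid, and 1.75, 1.24 and 2.42 in low NaHCO3. Low NaHCO3 was below all 3 controls but overlapped the other treatments, and the gene fell in both fits, at −0.96 ± 0.31 without control 1 (adjusted p = 0.0176) and −1.01 ± 0.29 with all 12 libraries (adjusted p = 0.0117). Without control 1 Fen1 passed under 3 of the 4 scalings and in 9 of 11 fits with a further library left out. In the annotation 78.8% of its exon bases lie opposite the antisense gene Gm10143 and 5.37% opposite Tmem258 (67.5 to 215 TPM), so reads of these genes cannot be told apart there.

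The genes of nucleotide supply differed most in Tyms, which makes thymidylate from deoxyuridylate. It stood at 29.5 TPM in control 1, 59.9 and 52.3 in controls 2 and 3, 42.5, 48.04 and 40.7 under 15% CO2, 34.8, 37.8 and 28.6 with lactic acid, and 19.9, 18.3 and 21.6 in low NaHCO3. Low NaHCO3 was lowest, then lactic acid, 15% CO2 and controls 2 and 3, with no overlap between them, and control 1 lay among the lactic acid libraries. Low NaHCO3 was at 0.356 times controls 2 and 3, with log2 changes of −1.45 ± 0.12 without control 1 (adjusted p = 2.47e-06) and −1.14 ± 0.22 with all 12 libraries (adjusted p = 0.00109). Tk1, the kinase that salvages thymidine for the same pool, stood at 35.7 TPM in control 1, 73.6 and 69.9 in controls 2 and 3, 53.8, 62.6 and 46.6 under 15% CO2, 58.5, 59.8 and 36.5 with lactic acid, and 61.02, 57.2 and 60.3 in low NaHCO3. Its lowest treated library was lactic acid replicate 3, and in low NaHCO3 the log2 change of −0.27 ± 0.18 without control 1 (adjusted p = 0.225) and 0.06 ± 0.26 with all 12 libraries (adjusted p = 0.847) did not pass.

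Ribonucleotide reductase, which makes deoxynucleotides, has its subunits in Rrm1 and Rrm2. Rrm1 stood at 87.2 TPM in control 1, 157 and 159 in controls 2 and 3, 131, 135 and 136 under 15% CO2, 136, 141 and 126 with lactic acid, and 184, 176 and 185 in low NaHCO3. Its low NaHCO3 libraries were above all others, and it rose by 0.20 ± 0.064 without control 1 (adjusted p = 0.0182) and 0.48 ± 0.18 with all 12 libraries (adjusted p = 0.0439), but passed under 2 of the 4 scalings. Rrm2 stood at 157 TPM in control 1, 310.1 and 324 in controls 2 and 3, 228, 256 and 229.7 under 15% CO2, 264, 274 and 199 with lactic acid, and 237, 242 and 233 in low NaHCO3. All 9 treated libraries were below controls 2 and 3, and in low NaHCO3 it fell without control 1 only, at −0.42 ± 0.12 without control 1 (adjusted p = 0.00981) and −0.08 ± 0.23 with all 12 libraries (adjusted p = 0.782). Rrm2 passed there under 3 of the 4 scalings and in 10 of 11 fits with a further library left out. Dut, which clears dUTP, ranged from 50.7 to 103 TPM and did not pass.

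All 3 genes of S phase entry were lower in low NaHCO3 than in controls 2 and 3. Ccne1 and Ccne2 encode the E-type cyclins, the activators of CDK2. Ccne1 stood at 31.6 TPM in control 1, 49.3 and 50.9 in controls 2 and 3, 45.9, 43.0 and 39.2 under 15% CO2, 37.3, 38.5 and 39.6 with lactic acid, and 25.7, 22.2 and 24.2 in low NaHCO3. Low NaHCO3 was below every other library, at 0.479 times controls 2 and 3, with log2 changes of −1.03 ± 0.085 without control 1 (adjusted p = 1.88e-06) and −0.82 ± 0.16 with all 12 libraries (adjusted p = 0.00115). Ccne2 stood at 45.1 TPM in control 1, 74.03 and 72.4 in controls 2 and 3, 62.5, 59.1 and 69.7 under 15% CO2, 44.6, 47.1 and 44.3 with lactic acid, and 33.7, 28.7 and 35.9 in low NaHCO3. Here lactic acid lay between, below controls 2 and 3 and 15% CO2, and close to control 1. The low NaHCO3 change was −1.14 ± 0.10 without control 1 (adjusted p = 2.52e-06) and −0.91 ± 0.17 with all 12 libraries (adjusted p = 0.000909). Of the exon bases of Ccne2, 17.4% lie opposite Ints8, which ranged from 23.7 to 35.7 TPM.

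E2f1, the transcription factor whose targets include many genes of this list, stood at 40.3 TPM in control 1, 71.8 and 74.2 in controls 2 and 3, 85.6, 80.2 and 73.2 under 15% CO2, 79.7, 80.4 and 71.2 with lactic acid, and 51.2, 47.6 and 53.5 in low NaHCO3. It was the 1 gene of the 44 with a positive log2 change under 15% CO2 without control 1 (0.12 ± 0.086, adjusted p = 0.389). In low NaHCO3 it was below all libraries except control 1, and it fell without control 1 only, at −0.52 ± 0.086 without control 1 (adjusted p = 0.000302) and −0.24 ± 0.19 with all 12 libraries (adjusted p = 0.302). Both cyclin E genes summed to 123 TPM in each of controls 2 and 3, 102 to 109 TPM under 15% CO2, 81.8 to 85.6 with lactic acid and 50.9 to 60.04 in low NaHCO3.

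Among the chromatin and turnover genes Dtl and Uhrf1 rose in both fits, and Chaf1a fell without control 1. Dtl encodes the receptor by which a ubiquitin ligase on PCNA destroys CDT1 in S phase. It stood at 14.1 TPM in control 1, 26.6 and 26.97 in controls 2 and 3, 25.7, 25.8 and 24.5 under 15% CO2, 30.03, 28.4 and 28.02 with lactic acid, and 52.96, 50.7 and 49.8 in low NaHCO3. Low NaHCO3 was above all other libraries at 1.91 times controls 2 and 3, the largest rise of the 44 genes in both fits, at 0.91 ± 0.066 without control 1 (adjusted p = 8.2e-07) and 1.20 ± 0.19 with all 12 libraries (adjusted p = 0.000353). So Cdt1 and Dtl, loader and remover, were both higher. Uhrf1, which brings the maintenance methyltransferase to newly copied DNA, stood at 88.1 TPM in control 1, 169 and 168 in controls 2 and 3, 147, 139.7 and 140.5 under 15% CO2, 147, 146 and 129.97 with lactic acid, and 215, 205 and 199.8 in low NaHCO3. It rose in low NaHCO3, by 0.29 ± 0.071 without control 1 (adjusted p = 0.0039) and 0.60 ± 0.20 with all 12 libraries (adjusted p = 0.025), with all 3 libraries above every other one, and 14.7% of its 50-base words also occur in the pseudogene Gm5648.

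Slbp, which binds the stem-loop of histone mRNAs, stood at 33.2 TPM in control 1, 51.3 and 48.3 in controls 2 and 3, 43.04, 50.02 and 47.2 under 15% CO2, 41.7, 44.5 and 44.5 with lactic acid, and 60.5, 51.98 and 59.8 in low NaHCO3. Its low NaHCO3 libraries were above all others, and it rose with all 12 libraries only, at 0.20 ± 0.087 without control 1 (adjusted p = 0.0651) and 0.39 ± 0.14 with all 12 libraries (adjusted p = 0.0377). Chaf1a, the large subunit of the histone chaperone CAF-1, was at 21.1 ± 0.437 TPM in low NaHCO3 (SD, n = 3) against a mean of 35.8 TPM in controls 2 and 3. It fell without control 1 only, at −0.73 ± 0.11 without control 1 (adjusted p = 0.000139) and −0.44 ± 0.21 with all 12 libraries (adjusted p = 0.0908), and 52.5% of its exon bases lie opposite Ubxn6 (2.42 to 4.65 TPM).

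**Figure D4:**
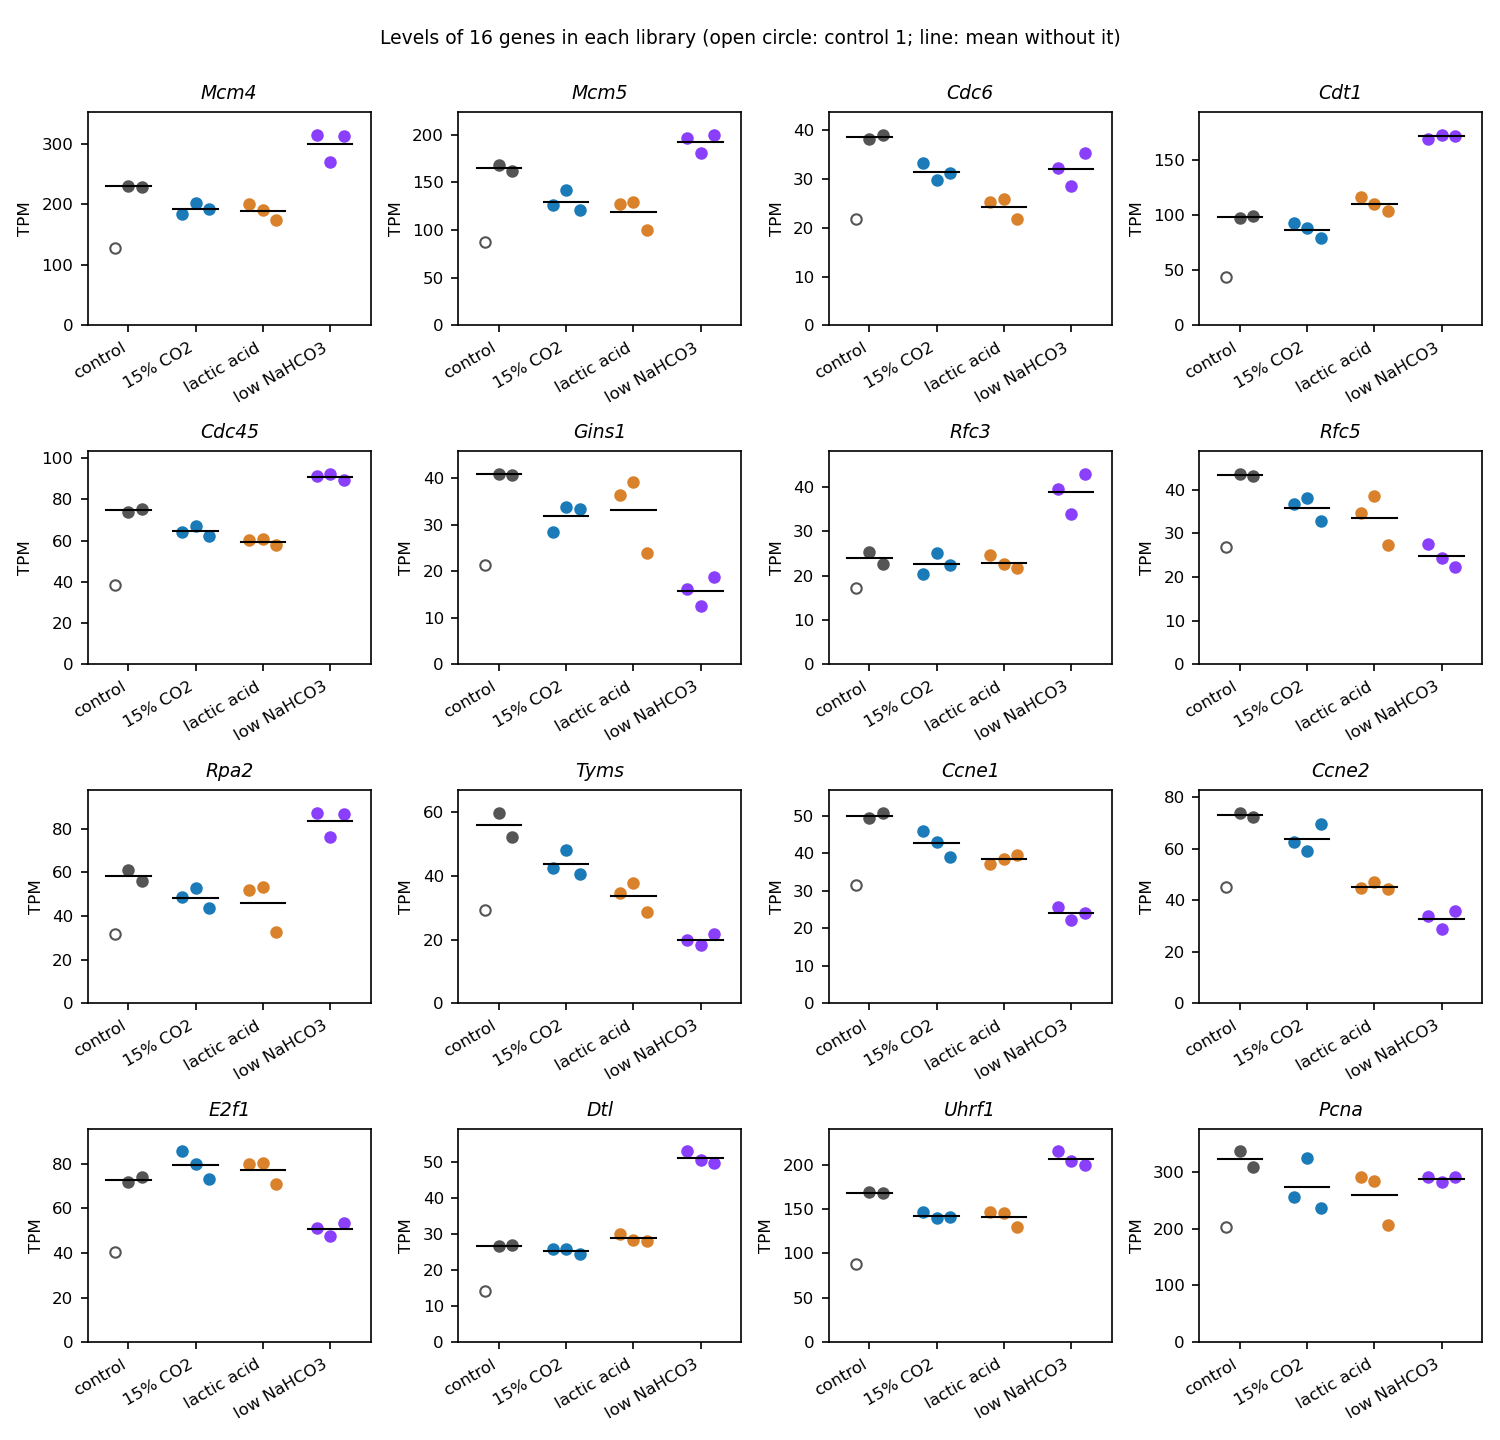
Circles are TPM in each library for 16 of the genes, with control 1 as an open circle and a line at each group's mean without it. Low NaHCO3 lies above all other libraries for Mcm4, Mcm5, Cdt1, Cdc45, Rfc3, Rpa2, Dtl and Uhrf1 and below all others for Gins1, Tyms, Ccne1 and Ccne2.

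Genes whose products work in 1 complex or pathway were also compared as ratios within a library, where overall scaling drops out. These ratios were chosen after their levels were seen and are given without a test; a shifted ratio shows unequal change and not which gene moved. Rfc3 over Rfc5 was 0.525 to 0.795 in the 9 libraries outside low NaHCO3 and 1.38 to 1.92 in it. Rpa2 over Rpa1 was 0.267 to 0.342 against 0.562 to 0.597. Gins1 over Gins4 was 0.352 to 0.543 against 0.160 to 0.235, and Rrm1 over Rrm2 0.492 to 0.634 against 0.729 to 0.793. In these 4 pairs control 1, although low in each gene, had a ratio outside the range of low NaHCO3.

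Ratios across steps set lactic acid apart as well. Cdt1 over Cdc6 was 2.02 to 2.56 in the controls, 2.53 to 2.97 under 15% CO2, 4.24 to 4.75 with lactic acid and 4.86 to 6.04 in low NaHCO3. Tyms over Rrm1 was 0.328 to 0.381, 0.299 to 0.357, 0.226 to 0.269 and 0.104 to 0.117 in the same order. Neither lactic acid range overlapped the controls or 15% CO2. E2f1 over Cdt1 was 0.735 to 0.916 in the controls and 0.275 to 0.311 in low NaHCO3, and Ccne1 over Mcm5 was 0.294 to 0.362 and 0.121 to 0.131.

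**Figure D5:**
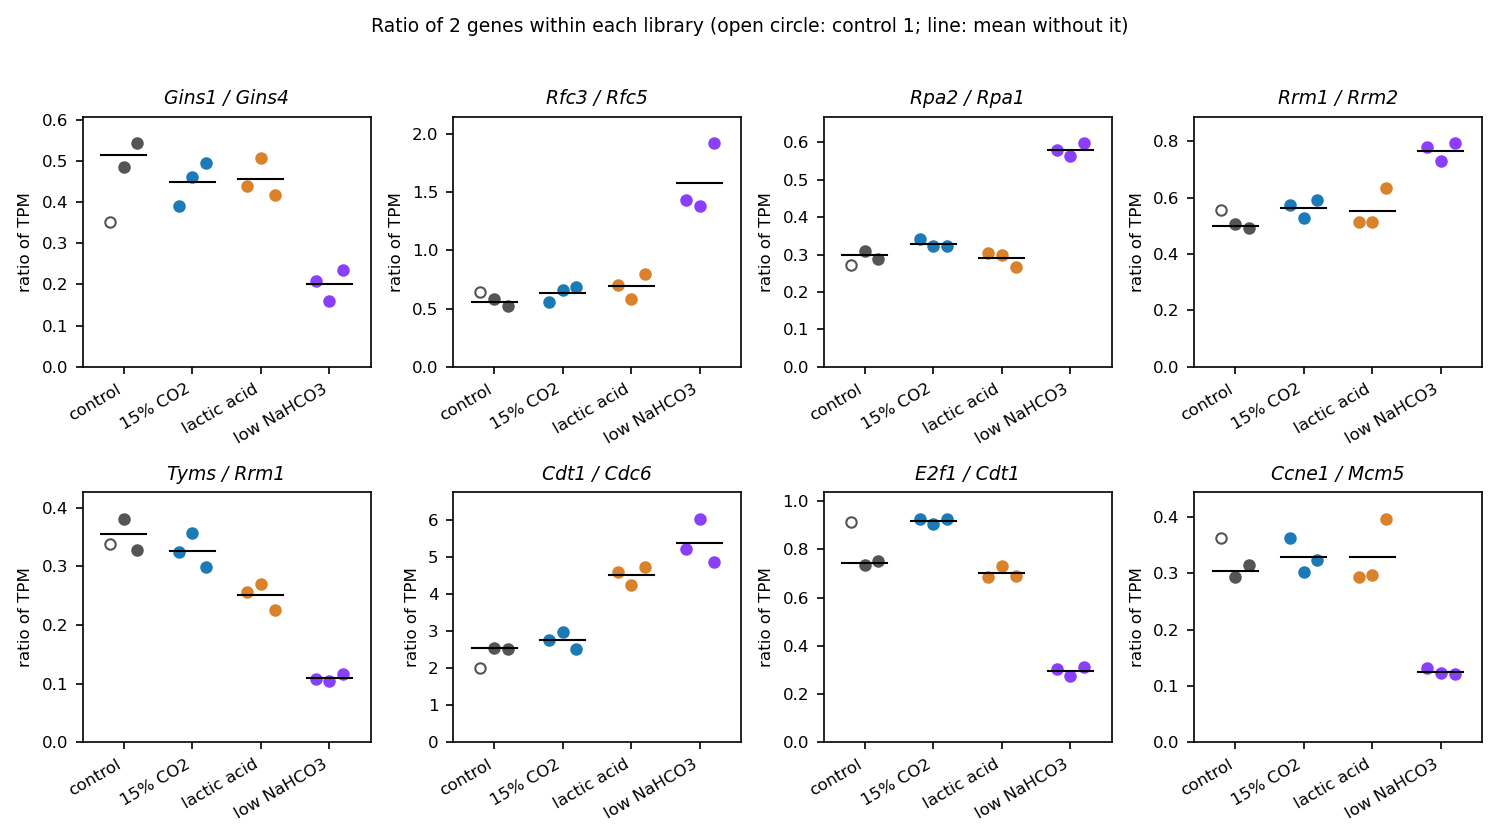
Each circle is the ratio of the TPM of 2 genes in 1 library, with control 1 as an open circle and a line at each group's mean without it. Low NaHCO3 stands apart in all 8 ratios shown, which were chosen after the levels were seen. Pcna over Rfc1, not shown, overlapped. Lactic acid lies between control and low NaHCO3 in Tyms over Rrm1 (0.226 to 0.269) and Cdt1 over Cdc6 (4.24 to 4.75).

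With lactic acid part of the list fell when control 1 was left out. In that fit 12 of the 44 fell and 0 rose, where 7.34% of all genes fell and 9.31% rose (16.6% in all), and the median log2 change was −0.27 against −0.0018 over all genes. Leaving out lactic acid replicate 3 as well moved the median of the 44 to −0.18. The 12 were Mcm2, Mcm4, Mcm5, Cdc6, Cdc45, Prim1, Rrm1, Tyms, Ccne1, Ccne2, Uhrf1 and Chaf1a. The largest were Tyms (−0.72 ± 0.12, adjusted p = 0.00458), Ccne2 (−0.68 ± 0.10, adjusted p = 0.00215), Cdc6 (−0.65 ± 0.10, adjusted p = 0.00304) and Mcm5 (−0.48 ± 0.11, adjusted p = 0.017). Mcm2, Mcm5, Cdc6, Cdc45, Tyms, Ccne2 and Chaf1a fell under all 4 scalings, where 5.58% of all genes fell and 8.38% rose under all 4. In the levels, all 3 lactic acid libraries were below controls 2 and 3 for 35 genes and above them for 2, Cdt1 and Dtl, where 28.4% of all genes were below and 28.1% above.

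With all 12 libraries limma called 0 of the 44 genes for lactic acid, where 4.4% of all genes passed (2.73% higher and 1.68% lower). At an unadjusted p under 0.05, 1 was higher and 1 lower, where 12.8% and 10.7% of all genes were. The count of 12 without control 1 became 2 when control 2 was left out as well and 3 when control 3 was, and 9 to 13 when any other library was. Only Cdc6 and Ccne2 passed in all 11 of these fits. Leaving out lactic acid replicate 3, which had 27.8% mitochondrial mRNA, beside control 1 gave 10. The share of all genes called in fits with a further library left out is not given here.

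Under 15% CO2 few of the genes passed the threshold. Without control 1, 43 of the 44 log2 changes were negative, with a median of −0.24 against 0.03 over all genes. Mcm2 (−0.31 ± 0.077, adjusted p = 0.0358) and Rrm1 (−0.24 ± 0.064, adjusted p = 0.0451) fell and 0 rose, where 1.63% of all genes fell and 5.99% rose (7.62% in all). The call of Mcm2 was kept under all 4 scalings and in 4 of 11 fits with a further library left out, and that of Rrm1 in 3 of 11 and under 2 of the 4 scalings. At an unadjusted p under 0.05, 21 were lower and 0 higher, where 9.01% and 17.2% of all genes were. All 3 libraries were below controls 2 and 3 for 35 genes and above them for 0, where 19.5% of all genes were below and 30.8% above. With all 12 libraries limma called 0 genes, where 1.41% of all genes passed (1.34% higher and 0.0667% lower), and 1 was lower and 0 higher at an unadjusted p under 0.05, where 4.2% and 11.6% of all genes were.

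The count under 15% CO2 depended on libraries outside the comparison too, since all groups share 1 estimate of spread. It was 17 that fell when lactic acid replicate 3 was left out beside control 1. It was 0 when control 2 or 3, any 15% CO2 library, lactic acid replicate 1 or low NaHCO3 replicate 1 was left out beside control 1, and 1 without lactic acid replicate 2. The share of all genes called in these fits is not given here, so the counts cannot be set against it. The comparisons with lactic acid and low NaHCO3 share the same controls.

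The treatments were then compared with each other, which leaves the controls out of the difference. Between 15% CO2 and lactic acid, Ccne2 (0.48 ± 0.087, adjusted p = 0.0131) and Cdc6 (0.36 ± 0.091, adjusted p = 0.0484) were higher and Cdt1 (−0.34 ± 0.069, adjusted p = 0.0203) lower under 15% CO2 in the fit without control 1, where 4.8% of all genes passed (3.09% higher and 1.71% lower). With all 12 libraries limma called 0, where 0.333% of all genes passed (0.275% higher and 0.0584% lower), and 1 was higher and 0 lower at an unadjusted p under 0.05, where 6.09% and 2.4% of all genes were. The estimates are the same in both fits; the median standard error of the 44 genes was 0.0917 without control 1 and 0.196 with it. Without control 1 the count ran from 0 (lactic acid replicate 1 also left out) to 3. The share of all genes is not given for the fits with a further library left out.

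Low NaHCO3 was also set against each of the other treatments. Against 15% CO2, 10 were higher and 7 lower with 12 libraries, where 18.1% and 34.6% of all genes were (52.7% in all). Without control 1 these were 17 and 10, where 24.2% and 45.8% of all genes were (69.9% in all). Against lactic acid 10 were higher and 5 lower, where 18.3% and 31.7% of all genes were (50% in all), and without control 1 the counts were 21 and 11, where 24.8% and 43.3% were (68.1% in all). So 38.6% and 34.1% of the 44 passed with 12 libraries, below the shares of all genes, and 61.4% and 72.7% without control 1, around them. Median-of-ratios scaling moved the 12-library splits to 16 and 4 against 15% CO2 (29.5% and 24.5% of all genes) and to 16 and 2 against lactic acid (28.5% and 23.3%). Leaving out mitochondrial mRNAs moved them to 5 and 9 (13.1% and 43.9%) and to 5 and 8 (13.3% and 40.9%). Without control 1 the same settings gave 29 and 8 (36.9% and 34.9%) and 12 and 14 (18% and 55.6%) against 15% CO2, and 28 and 7 (36.3% and 34.3%) and 15 and 13 (18.4% and 53.2%) against lactic acid.

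Genes called under all 4 scalings without control 1 included Mcm5 and Orc6, which did not pass against control in either fit. They also included Cdc6 and E2f1, which had fallen against control only without control 1. Mcm5 was higher in low NaHCO3 than under 15% CO2 (0.57 ± 0.10, adjusted p = 0.000415) and than with lactic acid (0.70 ± 0.10, adjusted p = 9.57e-05). Orc6 was also higher than in both (0.41 ± 0.10 and 0.37 ± 0.10). Cdc6 was higher than with lactic acid (0.39 ± 0.091, adjusted p = 0.00308), while against 15% CO2 it did not pass (0.02 ± 0.091, adjusted p = 0.825). E2f1 was lower than in both (−0.64 ± 0.077, adjusted p = 2.15e-05 and −0.59 ± 0.077, adjusted p = 4.23e-05), in both fits. In all, 12 genes were higher and 8 lower than under 15% CO2 under the 4 scalings, where 17.5% and 27.2% of all genes were, and 14 and 7 against lactic acid, where 18% and 27.5% were.

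Other genes of the pathway, from lists of roles written with earlier results of these data known, were counted in the same fits for low NaHCO3 against control. Over all genes 23.1% rose and 41.5% fell without control 1, and 20.5% and 35.8% with 12 libraries, and each list is read against these shares. Of 22 E2F, RB and G1 cyclin genes 3 rose and 11 fell without control 1, and 3 and 7 with 12 libraries. Tfdp1, a partner with which E2F factors such as E2F1 bind DNA, fell from 231 and 240 TPM in controls 2 and 3 to 94.7, 97.6 and 103 TPM (−1.25 ± 0.063, adjusted p = 7.74e-08). E2f7, which represses E2F targets, rose from 21.2 and 19.9 TPM to 46.4, 41.7 and 45.3 TPM (1.08 ± 0.11, adjusted p = 7.83e-06). The activators E2f2 (−0.79 ± 0.087) and E2f3 (−0.78 ± 0.082) fell, so without control 1 E2f1, E2f2, E2f3 and Tfdp1 all fell. With 12 libraries E2f1 did not pass. The genes of this list named here are those with its largest changes past the threshold. Of 7 CDK inhibitors 6 were tested and 0 passed with limma without control 1 (1 at an unadjusted p under 0.05, higher); with 12 libraries Cdkn2c rose (0.52 ± 0.20, adjusted p = 0.0472), and without control 1 it gave 0.26 ± 0.14, adjusted p = 0.122. Cdkn1b, which blocks cyclin E with CDK2, gave 0.16 ± 0.065, adjusted p = 0.0501.

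Of 19 further origin and fork genes 4 rose and 8 fell without control 1 (4 and 5 with 12 libraries), also near the 23.1% and 41.5% of all genes. Cdc7, the kinase that fires licensed origins, rose (0.88 ± 0.10, adjusted p = 1.33e-05), while Recql4 (−1.38 ± 0.11), needed to activate the helicase, and the fork protection pair Timeless (−0.92 ± 0.12) and Tipin (−1.04 ± 0.15) fell. Of 15 further polymerase and Okazaki genes 4 rose and 4 fell (4 and 2). Atad5, which unloads PCNA, rose (1.102 ± 0.078, adjusted p = 7.01e-07), as did Pold2 (0.57 ± 0.071), and the flap nuclease gene Dna2 (−1.20 ± 0.10) and Pole4 (−0.71 ± 0.22) fell.

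Of 10 genes of chromatin copied with DNA, 0 rose and 5 fell without control 1, and 0 passed with 12 libraries by limma (1 at an unadjusted p under 0.05, lower), where 56.2% of all genes passed. Chaf1b (−0.78 ± 0.087), the partner of Chaf1a, Nasp (−0.48 ± 0.066) and Asf1b (−0.35 ± 0.062), both histone chaperones, and Casp8ap2 (−0.33 ± 0.086) were among them. Of 21 further nucleotide synthesis genes 3 rose and 12 fell (3 and 7), where 41.5% (35.8%) of all genes fell. The largest changes of this list were falls, and the 3 genes that rose are not named. These falls were in the salvage kinase Dck (−0.78 ± 0.085) and in 3 enzymes of folate metabolism, from which Tyms draws its methyl group. Those enzymes were Shmt2 (−1.23 ± 0.088), Shmt1 (−0.89 ± 0.094) and Mthfd1 (−0.84 ± 0.11). Of 19 checkpoint and repair genes 5 rose and 6 fell (7 and 3), with Rad51ap1 highest (1.23 ± 0.091) and Exo1 (−0.97 ± 0.084), Fanci (−0.88 ± 0.086) and Chek2 (−0.81 ± 0.12) lower; Chek2 did not pass with 12 libraries.

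Of 20 mitosis genes 14 rose and 0 fell without control 1, where 23.1% and 41.5% of all genes did, and 15 and 0 with 12 libraries, where 20.5% and 35.8% did. Their median log2 changes were 0.45 and 0.76 against −0.06 and 0.15 for the 44 replication genes and −0.18 and −0.19 for all genes; the difference between the lists was not tested. Top2a, the topoisomerase of mitotic chromosomes, stood at 395 and 392 TPM in controls 2 and 3 and at 771, 773 and 706 TPM in low NaHCO3 (0.93 ± 0.091, adjusted p = 6.35e-06). Bub1b (0.73 ± 0.068), Cdk1 (0.67 ± 0.18) and Ccnb2 (0.58 ± 0.091) rose with it.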

How the data were processed

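RNA-seq values are TPM, which the authors deposited in 1 table of 21959 genes and 12 libraries, each column summing to 1000000. Per the submitters' processing notes, fastp 0.22.0 and HISAT2 2.1.0 were used with GRCm39. The sources used here do not name the counter, the gene annotation or the strand setting. TPM keep no depth, so counting error is unknown. Gene symbols came from GENCODE M21 (21851 IDs matched, 108 did not).

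Libraries were grouped by their treatment labels. In the descriptions of replicates 2 and 3, the last digit of the gas name or of a catalogue number runs on from replicate 1, and the treatment labels, which do not differ, were followed. Genes with at least 1 TPM in every library of at least 1 group were kept (11996, or 12023 without control 1). Their log2(TPM + 1) values were fitted with limma 3.58.1 in R 4.3.3 (1 mean per group, trended empirical Bayes, two-sided), with Benjamini-Hochberg adjustment over all genes kept. A log2 change on this scale understates the change of low genes. The fit was also run on simulated data without control 1, in which few genes were changed, equally up and down. Far more genes passed in low NaHCO3, so the simulation does not show how the fit does there. A two-sided permutation test of 3 libraries against 3 cannot go below 0.1, so none was used.

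Any of the 44 genes could be named. Values per library were given for a panel of well-known members and for those with the largest and smallest change in low NaHCO3 within each role. The members and lists were chosen with earlier results of these data known. Alternatives changed the pseudocount, filter, scaling, libraries and replicate block, and leaving out mitochondrial mRNAs was chosen after seeing the data. Promoter windows are RefSeq's on GRCm38.p6.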

Additional observations from a re-analysis of the deposited data

How the results depend on the processing

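The counts of called genes below follow the order 15% CO2, lactic acid and low NaHCO3 against control, 15% CO2 against lactic acid, and low NaHCO3 against 15% CO2 and against lactic acid. With all 12 libraries they were 0, 0, 17, 0, 17 and 15, and each was within 1.5 times of this with log2(TPM + 0.1), a filter at 5 TPM (which removed Fen1), robust empirical Bayes and median-of-ratios scaling. With no filter the last 2 counts were 11 and 9, and with quantile normalization 9 and 9. Over all genes these 2 comparisons called 6323 and 5998 in the main fit. They called 5991 and 5512 with no filter, and 5312 and 5039 with quantile normalization. With only the 2 groups compared in the fit, the last 4 counts were 9, 1, 28 and 28. Over all genes these were 5350, 185, 8344 and 7704, against 6743, 40, 6323 and 5998 in the main fit. Leaving out control 1 beside a change of scaling gave 9, 17, 27, 3, 37 and 35 for median-of-ratios scaling, 5, 12, 22, 3, 26 and 27 for quantile normalization, and 5, 12, 28, 4, 26 and 28 with mitochondrial mRNAs left out. The cause of these shifts was not tested. For low NaHCO3 the shares of all genes under median-of-ratios scaling and without mitochondrial mRNAs are given above. So are those against control with quantile normalization. The other shares under these scalings without control 1 are not given here, so those counts cannot be set against them.

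Replicate numbers did not pair the libraries: of 18 same-numbered pairs 3 had deviations correlated over 0.1 (range −0.15 to 0.49), and 3 of 12 libraries correlated best with their own number. With the replicate number as a block the counts were 0, 0, 17, 0, 15 and 13, and with control 1 left out as well 3, 16, 24, 2, 29 and 31. The shares of all genes called with the block are not given here.

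Leaving out 1 library, or control 1 and another, gave ranges of 0 to 17, 0 to 13, 10 to 29, 0 to 3, 8 to 29 and 7 to 32. The shares of all genes called with a further library left out are not given here. With lactic acid against control, the counts that moved ran from 2 to 13, and those of 15% CO2 against control and against lactic acid from 1 to 17 and 1 to 3.

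Some log2 changes that were on the other side of 0 with 12 libraries passed the threshold once control 1 was out. Over all fits that left out 1 library, or control 1 and another, the log2 changes of these genes ranged as follows. With lactic acid they were Mcm2 (−0.32 to 0.18), Mcm3 (−0.31 to 0.23), Rrm1 (−0.27 to 0.19) and Uhrf1 (−0.29 to 0.21). Under 15% CO2 they were Mcm3 (−0.28 to 0.25), Mcm4 (−0.29 to 0.17), Mcm7 (−0.28 to 0.15), Cdc45 (−0.24 to 0.27), Rrm1 (−0.25 to 0.19) and Uhrf1 (−0.26 to 0.22). In low NaHCO3 they were Prim1 (−0.26 to 0.26), Pole (−0.29 to 0.20) and Tk1 (−0.30 to 0.25). With only control 1 out the genes that passed on the other side were Mcm2 (−0.28), Rrm1 (−0.24) and Uhrf1 (−0.26) with lactic acid, Rrm1 under 15% CO2 (−0.24) and Pole in low NaHCO3 (−0.27). With median-of-ratios scaling and control 1 out they were Cdc45 (−0.24), Rrm1 (−0.28) and Uhrf1 (−0.28) under 15% CO2, Mcm2 (−0.27), Rrm1 (−0.23) and Uhrf1 (−0.25) with lactic acid, and Rrm2 in low NaHCO3 against 15% CO2 (0.22). With quantile normalization they were Cdc45 under 15% CO2 (−0.19), Mcm2 with lactic acid (−0.20) and Pcna in low NaHCO3 (−0.25). With mitochondrial mRNAs left out they were Mcm2 with lactic acid (−0.20) and, in low NaHCO3, Pcna (−0.25), Rfc1 (−0.15), Prim1 (−0.26), Pole (−0.36) and Tk1 (−0.35). With the replicate block they were Uhrf1 under 15% CO2 (−0.27), Mcm2 (−0.29), Rrm1 (−0.24) and Uhrf1 (−0.28) with lactic acid, and Pole in low NaHCO3 (−0.27). TPM keep no depth, so what depth limits is unknown.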
